A study of Arabidopsis thaliana with 6 samples.

Results

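The regions described here are the wide stretches of chromatin, each at least 3000 bp across, that were enriched in all 3 replicates of a MUTE-GFP ChIP-seq experiment in Arabidopsis thaliana. They were selected on the measured peaks themselves: the 3 peak lists were joined on chromosomes 1 to 5, overlapping or touching peaks were merged, and merged regions with a peak of every replicate and a width of at least 3000 bp were kept. The rule gave 759 broad regions out of 5946 shared regions (12.8%) and out of 14106 merged regions in all. A stretch of chromosome 2 from 3.2 to 3.7 Mb, which holds multi-copy sequence, was left out. It held 11 shared regions, 8 of them 3000 bp or wider and the widest 141422 bp across.

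All samples came from whole seedlings 2 days after germination that carried the transgene proMUTE::MUTE-GFP, a GFP fusion driven by the MUTE promoter, together with scrm-D, a dominant allele of SCREAM. The 3 immunoprecipitated (IP) samples were made with an antibody against GFP from 60 mg of seed each, and the 3 input samples had no antibody. Every group shared one genotype, tissue and age. An IP from plants without MUTE-GFP was not analysed here, so enrichment is over input only. The labels do not say whether replicates were grown separately, and the spread between them may be technical. Because whole seedlings were used, more cells holding MUTE and more MUTE per cell cannot be told apart.

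MUTE belongs to the basic helix-loop-helix (bHLH) family of transcription factors. In the stomatal lineage it ends the self-renewing asymmetric divisions of meristemoid cells and starts the formation of the guard mother cell. It works as a heterodimer with SCREAM (SCRM, also ICE1) or SCRM2, between its relatives SPEECHLESS (SPCH), which starts the lineage, and FAMA, which completes guard cell fate. Its known targets include cell cycle genes that drive the single symmetric division of the guard mother cell and then stop it. ChIP-seq peaks of a transcription factor are usually compact, with one summit over the bound site, so a wide region can hold several sites or one strong site with long flanks.

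The IP libraries held 30075453, 20173429 and 21903071 fragments in replicates 1, 2 and 3 after duplicates were removed, with mean lengths of 309, 317 and 312 bp. The lists held 12388, 10823 and 7710 peaks on chromosomes 1 to 5. Replicate 1 was thus the deepest and replicate 3 had the shortest list. Each listed peak carries 1 summit, so the number of summits in a region equals the number of separate peaks that a replicate has there, and summits inside a single peak were not resolved.

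Broad regions were mostly just above the width limit, with a long tail of wider ones. Width ranged from 3001 to 16122 bp with a median of 3971 bp, and 25% of the distribution lay below 3442.5 bp and 25% above 4965.5 bp. There were 373 regions of at least 4000 bp, 186 of at least 5000 bp, 32 of at least 8000 bp and 10 of at least 10000 bp. Together the broad regions covered 3.42 Mb, against 6.88 Mb in the 5187 other shared regions, whose median width was 1169 bp. Just inside the limit were a region of 3001 bp on chromosome 5 (4275023 to 4278023), one of 3005 bp on chromosome 1 (4538195 to 4541199) and one of 3005 bp on chromosome 5 (6840776 to 6843780) over HHP1. Their highest fold enrichments, each the authors' own ratio of summit pileup to background, were 3.57, 4.86 and 3.65 in replicates 1, 2 and 3 for the region of 3001 bp, 2.75, 3.18 and 2.65 for the one on chromosome 1, and 3.69, 5.39 and 4.05 for the one over HHP1. Just outside were a region of 2998 bp on chromosome 1 (4951624 to 4954621), with folds of 4.17, 6.30 and 3.85, and a region of 2995 bp on chromosome 5 over EMS1 (2283690 to 2286684), a receptor kinase gene of anther development, with folds of 4.25, 6.24 and 5.04. A further region of 2995 bp on chromosome 2 (8930667 to 8933661) had folds of 2.27, 2.70 and 1.70. The values on both sides of the limit overlapped, so the limit cuts through a continuous range.

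A merged region is at least as wide as the peaks in it, and a single replicate often spanned most of it. The replicate's own peaks covered a median of 92.9%, 91.9% and 73.8% of the width of broad regions in replicates 1, 2 and 3, against 85.6%, 87.3% and 68.0% of other shared regions. A single peak of 3000 bp or more was present in 506, 521 and 272 broad regions. In 217 regions every replicate had such a peak, and in 92 no replicate did, so those 92 reached 3000 bp only as the union of shorter peaks. Width therefore depended on the list, and replicate 3 broke regions into shorter peaks more often than the others. When the own peaks of every replicate had to cover 3000 bp, 323 regions remained.

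Most broad regions had 1 summit in a given replicate. In replicates 1, 2 and 3 the number with 1 summit was 500, 563 and 383, that is 65.9%, 74.2% and 50.5% of broad regions, against 94.6%, 97.0% and 94.7% of other shared regions. There were 2 summits in 230, 167 and 280 broad regions and 3 or more in 29, 29 and 96, with at most 4, 4 and 6 summits in one region. The mean was 1.38, 1.30 and 1.64 summits per broad region (1.44 ± 0.18, SD, n = 3), against 1.05, 1.03 and 1.05 per other shared region (1.05 ± 0.01). Since a wider region has room for more peaks, these counts describe the regions and were not tested.

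The replicates often gave a different number of summits for the same broad region. A single summit in every replicate was found in 249 of the 759 broad regions (32.8%), against 4620 of the 5187 other shared regions (89.1%). At least 2 summits in every replicate were found in 55 broad regions and in 1 other shared region. In 455 broad regions some replicates had a single summit and others had more, and 271 had the same number in all 3. Replicate 3 had more summits than both others in 198 regions, and in 137 of these replicates 1 and 2 each had 1 summit. Replicate 3 also had the shortest list, and the part of depth and list length in these splits was not tested.

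**Figure D1:**
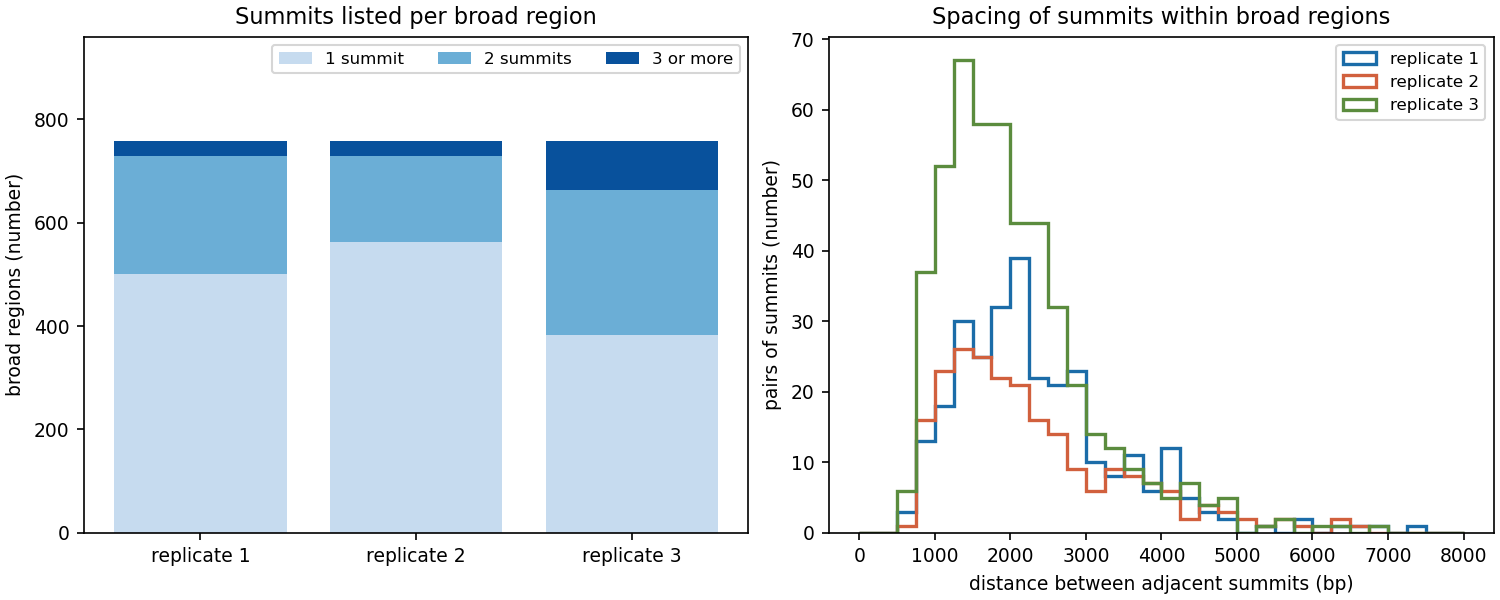
Left, number of the 759 broad regions with 1, 2 or 3 or more summits in each replicate (stacked bars). Right, distance in bp between adjacent summits of the same replicate inside a broad region, as the number of pairs per distance class; 3 of the 1008 pairs lay more than 8000 bp apart and are not drawn. Replicate 3 has the fewest regions with a single summit (383) and the most pairs.

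Adjacent summits of one replicate lay about 2000 bp apart inside broad regions. The median spacing was 2171 bp over 292 pairs in replicate 1, 2005 bp over 227 pairs in replicate 2 and 1888 bp over 489 pairs in replicate 3, or 2021 ± 142 bp (SD, n = 3). In other shared regions, where the width itself limits the spacing, the medians were 1211, 1205 and 1127 bp. The central 50% of spacings in broad regions ran from 1617.5 to 2904 bp in replicate 1, from 1431 to 2968.5 bp in replicate 2 and from 1354 to 2505 bp in replicate 3. The closest summits were 592, 670 and 635 bp apart, and the farthest 13175, 6573 and 11413 bp apart. Where a broad region had 2 or more summits in a replicate, the second highest reached a median of 0.618, 0.523 and 0.647 of the pileup of the highest, against 0.790, 0.777 and 0.787 in other shared regions. The listed summits of a broad region were thus less equal in height than those of the other shared regions in each replicate. Every listed summit had to pass the peak cutoff, and the highest summits of other shared regions had lower pileups. The ratio therefore had less room to fall there, and the part of this limit was not tested.

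The strongest summit recurred at the same place in most broad regions, and the weaker summits did so less often. The summits of the peaks of highest fold lay within 150 bp of each other in 545 broad regions (71.8%), against 67.3% of other shared regions, and the median range over the 3 replicates was 61 bp, against 91 bp. In 137 broad regions (18.05%) they were more than 1000 bp apart, against 3.47% of other shared regions. When summits of different replicates within 300 bp were linked, broad regions held 1652 positions. Of these, 38.4% were seen in 3 replicates, 22.0% in 2 and 39.6% in 1, against 69.4%, 12.6% and 18.0% of the 6477 positions in other shared regions. One position recurred in all replicates in 603 broad regions, and none did in 140. The strongest summit lay in the central 50% of the region's width in 59.9%, 61.8% and 61.9% of broad regions, against 76.7%, 80.5% and 78.8% of other shared regions.

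Each peak carries a single listed summit, so a long peak cannot show a pair of positions. A pair can therefore recur in every replicate only where each replicate lists more than a single summit. This was the case in 55 of the 759 broad regions. Of these 55, 16 held a pair of positions that recurred in every replicate, and no region held more. These 16 had a median distance of 3117 bp between the recurring positions, with a central 50% from 2184.25 to 4187.75 bp. In the region over FP3, which encodes a farnesylated metal-binding protein, the positions were 386 and 6678 bp from the region's start (chromosome 5, 25430380 to 25437446). In the region over HEC1 and RALFL34 on chromosome 5 (26760975 to 26769527) they were 1633 and 7084 bp from the start. HEC1 encodes a bHLH factor and RALFL34 a signalling peptide. The region over DWF1, a gene of brassinosteroid synthesis, had them 1048 and 3173 bp from its start (chromosome 3, 6881195 to 6885230). Among the 16, the FP3, HAT14 and MCA1 regions were also named for their width or number of summits and are described further below.

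Broad regions were stronger than other shared regions in each replicate, by pileup and by fold alike. The pileup is the number of IP fragments stacked at a summit. The highest pileup of a broad region had a median of 321, 282 and 223 fragments in replicates 1, 2 and 3, against 175, 139 and 118 fragments in other shared regions. The ratio of medians was 1.83, 2.03 and 1.89, or 1.92 ± 0.10 (SD, n = 3). At the 10% and 90% points of broad regions the pileup was 198 and 473 fragments in replicate 1, 154.6 and 456.8 in replicate 2, and 125 and 391 in replicate 3. Median highest fold enrichment was 3.86, 4.87 and 3.65 in broad regions, against 2.18, 2.50 and 2.01. The background behind the summits was alike, with medians of 80.0, 54.9 and 58.0 fragments in broad regions, against 79.2, 54.3 and 57.4. Pileup and width come from the same peaks, so no test was made. The ratio fell to 1.17 when only peaks with a fold of at least 3 were used, a threshold that left 471 broad regions.

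**Figure D2:**
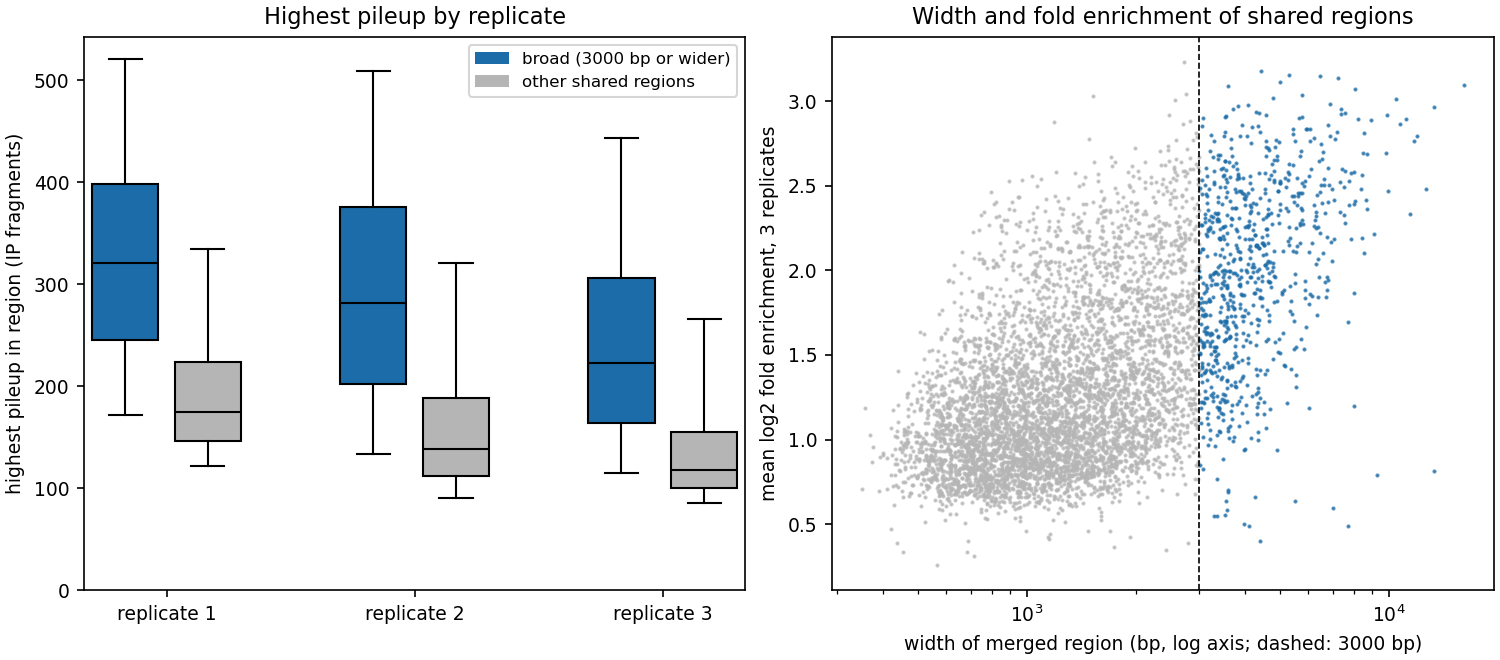
Left, highest pileup per region in IP fragments, for broad and other shared regions in each replicate; boxes show the quartiles, lines the median and whiskers the 5% and 95% points. Right, width of each shared region (log axis) against its mean log2 fold enrichment over 3 replicates, with broad regions in blue right of the dashed limit. The broad medians are 321, 282 and 223 fragments, and broad regions are spread over nearly the whole range of fold.

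The strength of broad regions varied widely, and width predicted it only loosely. Of the 10 shared regions of highest mean log2 fold, 8 were broad, as were 81 of the top 100 and 283 of the top 500. At the other end, 71 broad regions lay below the median of all shared regions. The median over broad regions of the mean log2 fold was 2.02, with a median SD over replicates of 0.25, against 1.14 and 0.21 in other shared regions. Replicate 2 gave the highest fold in 672 of the 759 broad regions. Across the 759 regions, which share libraries and background, Spearman's rho between width and highest pileup was 0.42, 0.37 and 0.37 in replicates 1, 2 and 3. Across the 5187 other shared regions it was similar, at 0.38, 0.37 and 0.33. Replicates ranked the broad regions alike, with rho of pileup of 0.91 for replicates 1 and 2, 0.90 for 1 and 3 and 0.98 for 2 and 3. The covered length agreed less, with rho of 0.77, 0.71 and 0.76 for the same pairs.

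Since the lists that chose the regions also gave these values, each replicate was read in regions chosen from the other lists alone. Leaving out replicate 1, 2 or 3 gave 584, 599 and 724 regions of at least 3000 bp and 5868, 5762 and 7731 narrower ones. The held-out replicate had a peak in 100%, 100% and 99.6% of the broad regions, missing 0, 0 and 3 of them, against 93.7%, 95.6% and 68.1% of the narrower ones. It had 2 or more summits in 31.8%, 25.4% and 49.3% of the broad regions, against 4.33%, 2.48% and 3.44%. Its peaks covered a median of 91.8%, 91.5% and 73.4% of the width of the broad regions, against 83.2%, 85.9% and 52.2%. The median highest pileup, with regions lacking a peak left out, was 342.5, 303 and 227 fragments in broad regions, against 179, 143 and 119 fragments in narrower ones, a ratio of 1.98 ± 0.12 (SD, n = 3). For presence, summits, covered width and pileup the broad regions were higher in 3 of 3 held-out replicates (exact two-sided sign permutation over replicates, p = 0.25 for each, the smallest that 3 replicates allow). A design of this size therefore cannot reach 0.05, and no conclusion is drawn from the test. A wider region also has room for more peaks, and pileup rose with width and ranked alike between replicates. The direction for presence, summits and pileup thus follows in part from the choice by width. Covered width was not separated from presence, which was also lower in narrower regions. Each list helped to choose the regions for the other readings, so the 3 readings are not independent.

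**Figure D3:**
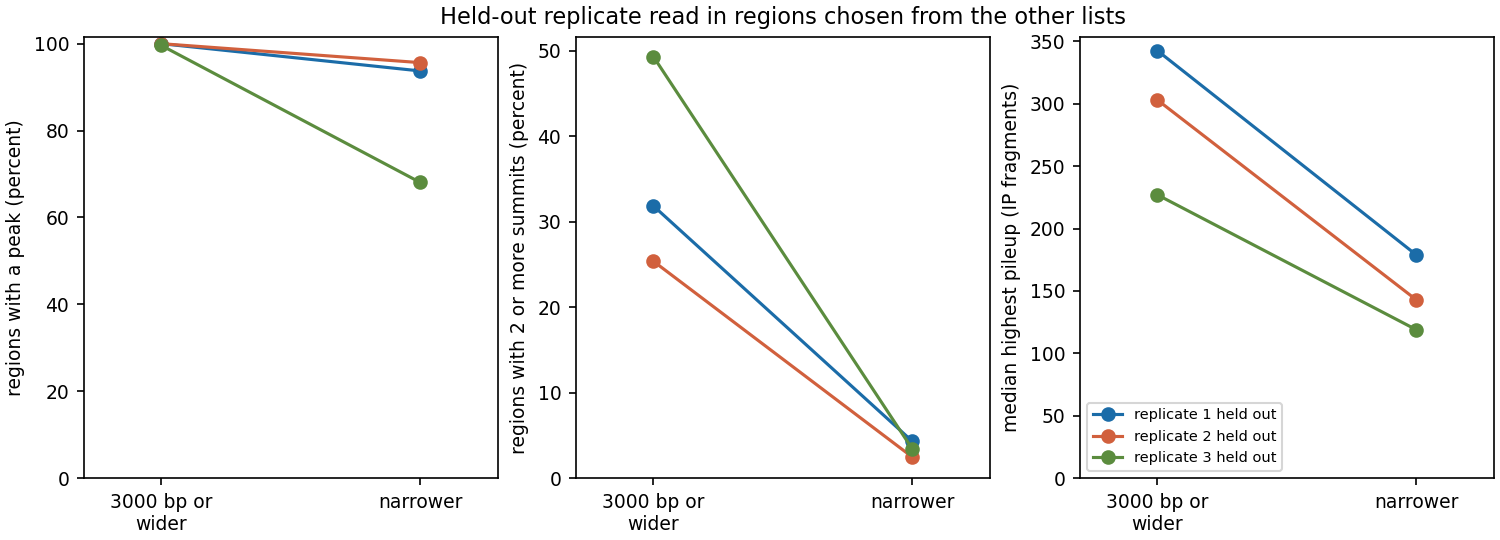
Values of a held-out replicate in regions of 3000 bp or wider and in narrower regions chosen from the other lists: percent of regions with a peak, percent with 2 or more summits, and median highest pileup in IP fragments. Each line is a held-out replicate, and every line is higher for the wide regions, with pileups of 342.5, 303 and 227 fragments.

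Relative to genes, broad regions spanned whole transcription units, while their summits lay outside genes more often than those of other shared regions. A broad region overlapped a median of 2 protein-coding genes and at most 6, against a median of 1. It overlapped 1 gene in 289 cases, 2 in 253 and 3 or more in 182, and none in 35 (4.61%), against none in 17.7% of other shared regions. A whole protein-coding gene lay inside 496 broad regions (65.3%), against 9.99% of other shared regions. Of all protein-coding genes, 5.02% were overlapped by a broad region. Such counts grow with width. The share of bases in protein-coding genes, which does not, was 53.2% in broad regions, against 56.1%. Summits fell inside a protein-coding gene in 41.9%, 43.5% and 46.4% of cases (43.9 ± 2.29%, SD, n = 3), against 48.0%, 51.2% and 52.6% (50.6 ± 2.36%) for other shared regions. The share was lower for broad regions in each replicate. All replicates were read in the same regions, so they are not independent for location. The SD between them does not measure how the share varies between regions, and the difference was not tested.

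Summits between genes also lay farther from genes in broad regions. The median distance to the nearest protein-coding gene edge was 558, 611 and 621 bp (597 ± 33.9 bp, SD, n = 3), against 349.5, 419 and 444 bp (404 ± 49.0 bp). More than 1000 bp separated the summit from a gene in 31.4%, 33.0% and 33.5% of these cases, against 25.9%, 28.0% and 28.9%. The intergenic stretches holding the summits were slightly longer, with medians of 2674, 2931 and 2972 bp, against 2523, 2625 and 2659 bp. The gene nearest to the strongest summit was the same in all replicates for 671 broad regions (88.4%). Gene strand was not used, so a distance does not say whether a summit lay before the start or after the end of a gene.

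The widest region ran over 16122 bp of chromosome 1 (29752831 to 29768952) and held 4 whole genes, among them BRG2, a RING finger protein gene. Its highest pileup was 539, 554 and 505 fragments with folds of 6.78, 10.2 and 9.01 in replicates 1, 2 and 3. Replicate 1 had 2 summits, replicate 2 had 1 and replicate 3 had 2. The strongest summit was inside AT1G79120 in replicates 1 and 2, and nearest to AT1G79103, 896 bp away, in replicate 3. The strongest summit lay 13955, 14009 and 4053 bp from the region's start, and in replicate 3 it belonged to a single peak of 13501 bp that also covered the place where the summits of the others lay. One summit per peak was listed, so a second maximum in such a peak cannot be read from the list.

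The next widest region, 13391 bp on chromosome 1 (3520149 to 3533539) near AT1G10650, also had the most summits, 10 over the 3 replicates. Replicate 1 listed 3 summits, replicate 2 a single peak of 12992 bp, and replicate 3 6 separate peaks. The strongest summit agreed within 40 bp, 1015 to 1055 bp from AT1G10650, with folds of 7.01, 9.07 and 7.45. In replicate 3 the other summits had folds between 1.49 and 5.09. A single peak in one list was thus a chain of peaks in another.

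The fourth widest region, 12718 bp on chromosome 5 (26490893 to 26503610), spanned 6 genes including GATA5, a GATA zinc finger gene, and SHI, a gene of the SHORT INTERNODES family. Its folds were 4.35, 7.45 and 5.35, and its strongest summit moved by 5358 bp between replicates. The region of 10778 bp on chromosome 4 (17767648 to 17778425) held HAT22, a homeodomain-leucine zipper gene, and XTH7, a gene of a cell wall enzyme, with folds of 6.03, 8.58 and 7.41. HAT14, of the same homeodomain family as HAT22, lay in a region of 10459 bp on chromosome 5 (2065680 to 2076138). That region had recurring positions 5128 and 8780 bp from its start, and folds of 6.83, 9.12 and 8.38. Its strongest summit was nearest to PA2, 2871 to 2928 bp away, rather than to HAT14.

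Of the remaining wide regions, one of 11998 bp on chromosome 2 (18907558 to 18919555) covered PIP1B, an aquaporin gene, and CYP86A8, a fatty acid hydroxylase gene of cuticle formation. Its strongest summit lay 2, 15 and 67 bp from CYP86A8, with folds of 6.65, 8.25 and 6.10. The region of 11765 bp at BRG3 on chromosome 3 (4116893 to 4128657), a gene related to BRG2, had its strongest summits within 2 bp of each other and folds of 6.18, 8.13 and 6.27. On chromosome 4, a region of 11473 bp at AT4G30350 (14842624 to 14854096) had folds of 5.11, 5.57 and 4.47. There the summits 3521 and 10206 bp from the start in replicate 1 had pileups of 412 and 373 fragments, and replicate 3 ranked its nearest counterparts the other way, with 249 and 266 fragments. Replicate 2 joined both into a peak of 11393 bp.

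The other regions chosen for many summits had 9 or 10 over the replicates. A region of 9822 bp on chromosome 1 (28546251 to 28556072) spanned 5 genes, among them PETE1, a plastocyanin gene of photosynthesis, and had 3, 3 and 4 summits and folds of 5.63, 7.55 and 6.37. The region at MCA1, a gene of a calcium-permeable membrane protein, and FBS4 on chromosome 4 (17014268 to 17022985) had 4, 2 and 3 summits and folds of 6.12, 7.96 and 5.50. The region at PRS3 on chromosome 1 (3546588 to 3554374), a gene of nucleotide synthesis, had 3, 2 and 4 summits and folds of 5.58, 6.51 and 5.25. The FP3 region had 2, 2 and 5 summits and folds of 4.37, 6.60 and 5.25. In each of these the strongest summit agreed within 94 bp, while most of the weaker summits were listed in 1 or 2 replicates.

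The 5 broad regions of highest mean log2 fold were narrower and simpler than the widest ones. They measured 4430 bp on chromosome 4 (12934928 to 12939357), 5318 bp on chromosome 4 (13066273 to 13071590), 6466 bp on chromosome 3 (23227387 to 23233852), 7254 bp on chromosome 3 (2351173 to 2358426) and 5025 bp on chromosome 5 (26749407 to 26754431). Mean log2 fold lay between 3.11 and 3.18, and the strongest summits agreed within 70 bp. Of these regions, 3 had a single summit in every replicate, and the remaining 2 had a second summit in 1 replicate. The region on chromosome 3 over PUB9 and CHIP, both genes of U-box ubiquitin ligases, had pileups of 609, 601 and 577 fragments. The one on chromosome 5 lay over ABA1, the zeaxanthin epoxidase gene of abscisic acid synthesis, with its summits 615 to 621 bp from the gene and pileups of 579, 578 and 523 fragments.

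Genes of the stomatal lineage were frequent near broad regions. Of all 27444 protein-coding genes, 7.62% lay within 2000 bp of a broad region and 30.2% within 2000 bp of another shared region only. Of the 23 stomatal genes matched, 13 lay within 2000 bp of a broad region (56.5%), 6 near another shared region only (26.1%) and 4 near neither, and BRXL2 was not matched. The 13 include MUTE itself, whose sequence the transgene carries, and the part of the transgene was not tested. Of the 21 cell cycle genes, 4 lay near a broad region (19.0%), 10 near another shared region only (47.6%) and 7 near neither. The median of the mean log2 fold at the stomatal genes near broad regions was 2.79, against 1.88 at those near other shared regions, and at the cell cycle genes 2.31, against 1.58. Where several broad regions lay within 2000 bp of a gene the strongest was used, and with the nearest one the medians were 2.79 for stomatal and 2.08 for cell cycle genes. The lists were chosen with results of these data known, so these counts are a description.

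Genes of the bHLH factors that form or flank the MUTE complex were all covered by broad regions. SPCH lay in the eighth widest, 11182 bp on chromosome 5 (21585125 to 21596306). Its pileup was 474, 499 and 406 fragments and its fold 6.20, 9.31 and 7.12, with 1, 1 and 3 summits. The strongest summit fell 2099, 2104 and 2169 bp from the gene. In replicate 3 a second summit with a fold of 6.29 lay in a separate peak of 3655 bp, and the peaks of replicates 1 and 2 spanned that place without a summit of their own. SCRM lay in a region of 6876 bp on chromosome 3 (9830451 to 9837326) with 548, 554 and 474 fragments and folds of 6.69, 10.4 and 7.09. SCRM2 lay in one of 4801 bp on chromosome 1 (4382305 to 4387105) with folds of 6.70, 9.40 and 8.41. In both, the strongest summit was inside the gene in every replicate, unlike at SPCH. The region of FAMA, 5700 bp on chromosome 3 (8714463 to 8720162), was weaker, with folds of 4.77, 5.35 and 4.50 and its strongest summit 1056 to 1062 bp from the gene.

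**Figure D4:**
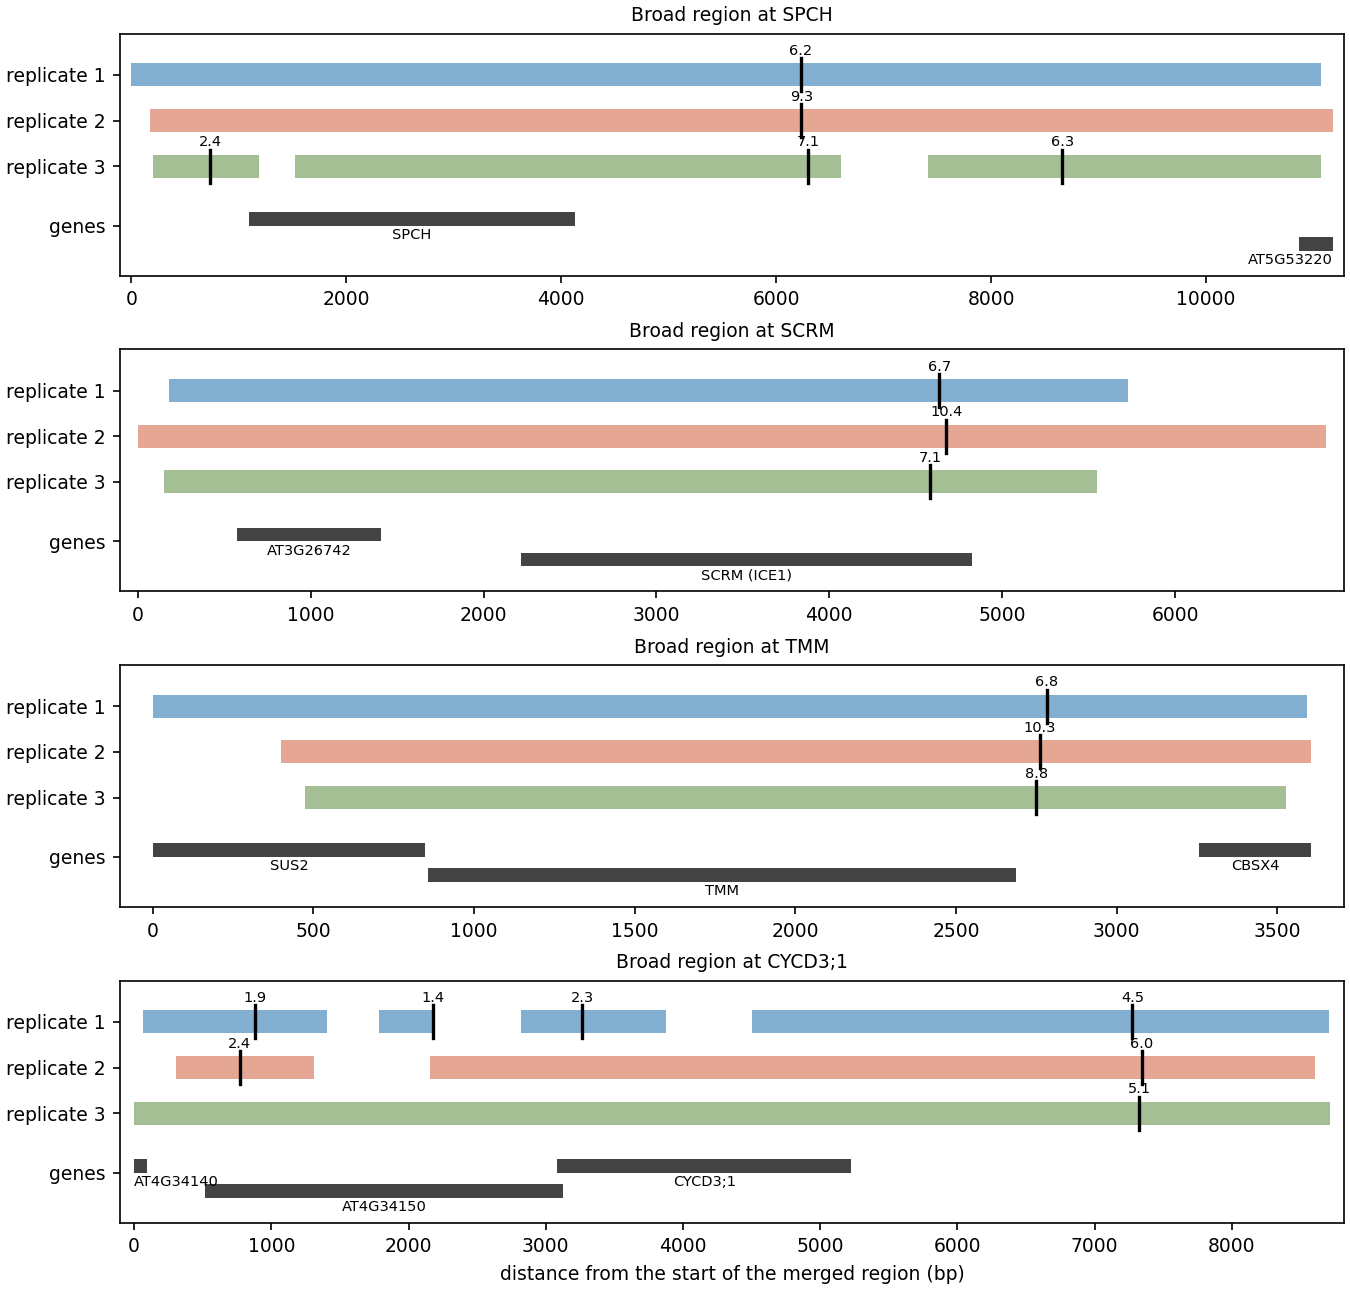
Broad regions at SPCH, SCRM, TMM and CYCD3;1, with the peaks of each replicate as bars, summits as black ticks labelled with the authors' fold enrichment, and protein-coding genes below, against the distance in bp from the region's start (gene strand not shown). Every replicate has a single peak in the SCRM and TMM regions, while the SPCH region splits in replicate 3 and the CYCD3;1 region in replicates 1 and 2.

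Receptor and peptide genes of stomatal patterning were divided between broad and other shared regions. TMM, a receptor-like protein gene that restrains stomatal clustering, lay in a broad region of 3607 bp on chromosome 1 (30126962 to 30130568). Its pileup was 495, 513 and 473 fragments and its fold 6.76, 10.3 and 8.85, with a single summit 63 to 95 bp from the gene in each replicate. EPF1 and EPF2, which encode secreted peptides that limit stomatal number, had regions of 3499 and 3536 bp and folds of 6.23, 8.19 and 6.50 for EPF1 and 6.44, 8.87 and 7.39 for EPF2. SDD1, a protease gene of the same pathway, had one of 4363 bp with folds of 5.86, 9.40 and 6.79. The receptor kinase genes ERL1, ERL2 and BAK1 lay in shared regions of 2583, 2741 and 2591 bp, and ERL1 reached folds of 4.87, 8.15 and 6.34. ERECTA had folds of 2.12, 2.94 and 1.81 in a region of 864 bp. In each replicate the narrower regions of this group had lower folds than the regions of TMM, EPF1, EPF2 and SDD1.

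Genes of cell polarity and late lineage factors followed. BASL, a polarity gene of asymmetric division, had a broad region of 3877 bp with folds of 5.99, 8.68 and 6.37, and POLAR, another polarity gene, one of 3277 bp with folds of 3.95, 6.08 and 5.13. HDG2, a homeodomain gene that promotes stomatal differentiation, had one of 4866 bp with folds of 5.56, 7.74 and 6.79. FLP, a MYB gene that ends guard mother cell division, had one of 4618 bp with folds of 4.43, 5.18 and 4.29, and its paralog MYB88 lay in a shared region of 923 bp with folds of 2.63, 2.77 and 2.13. Among kinase genes of the pathway, MPK6 lay near a shared region of 1076 bp, and YDA and MPK3 lay near none, as did SERK1 and EPFL9.

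All 4 cell cycle genes near broad regions were D-type cyclin genes, whose products start the cell cycle with their kinase partners. The list held 8 D-type cyclin genes and 13 other genes. Not all D-type cyclin genes were near a broad region: CYCD3;3 and CYCD4;1 lay near another shared region only, and CYCD2;1 and CYCD4;2 near neither. CYCD3;1 lay in a region of 8716 bp on chromosome 4 (16354338 to 16363053) with 374, 347 and 293 fragments, folds of 4.48, 6.03 and 5.05 and 4, 2 and 1 summits. Its strongest summit lay 2049 to 2115 bp from the gene in all 3 replicates. CYCD3;2 lay in one of 6372 bp on chromosome 5 (26832689 to 26839060) with folds of 4.32, 5.97 and 4.23 and its strongest summit 435 to 453 bp away. CYCD7;1, a cyclin gene of the guard mother cell, had a region of 3575 bp with folds of 3.97, 4.17 and 3.14. CYCD5;1, which MUTE is known to induce, was overlapped by a broad region of 3400 bp on chromosome 4 (17678937 to 17682336) with folds of 2.21, 2.58 and 2.05. Beside it lay a stronger one of 4658 bp (17673455 to 17678112) with folds of 5.71, 8.08 and 6.09 and its summit 2899 to 2916 bp from the gene.

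Another 10 cell cycle genes lay near narrower shared regions only, and 7 lay near neither. SMR4, a gene of a cell cycle inhibitor, lay within a region of 2664 bp with folds of 3.91, 5.26 and 4.21, and CYCA2;3 at one of 2987 bp with folds of 4.32, 5.58 and 4.77. KRP1, another inhibitor gene, lay in one of 2895 bp with folds of 2.18, 3.89 and 2.84. At a minimum of 2500 bp these 3 genes, like ERL1, ERL2 and BAK1, would be near a broad region. CDKB1;1, a mitotic kinase gene, had folds of 3.03, 4.35 and 3.24 in a region of 1836 bp, and RBR1, the retinoblastoma-related gene, 3.09, 4.07 and 3.40 in one of 950 bp.

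**Figure D5:**
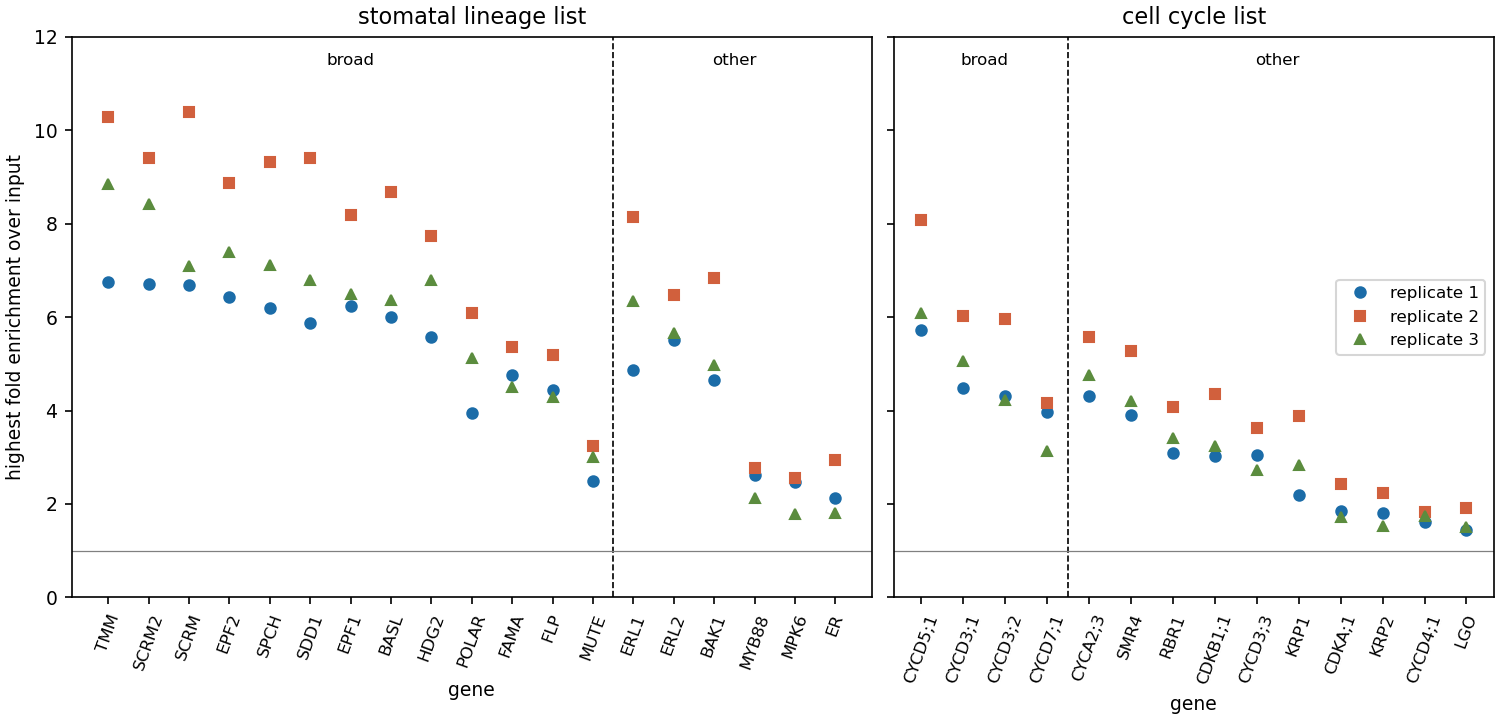
Highest fold enrichment over input in the strongest region of its class within 2000 bp of each listed gene, per replicate, for genes within 2000 bp of a broad region (left of each dashed line) and of another shared region (right of it), ordered by mean log2 fold; the grey line marks a fold of 1. Folds in replicate 2 are the highest at every gene shown, and ERL1, ERL2 and BAK1 lie within the range of the genes near broad regions.

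The MUTE gene itself lay in a broad region with high background. The region of 5484 bp on chromosome 3 (1844580 to 1850063) covered MKP2 and MUTE, with pileups of 639, 624 and 613 fragments over backgrounds of 256, 192 and 203, and folds of 2.49, 3.24 and 3.01. The transgene carries MUTE sequence, and its part in this region was not tested. In all, 16 of the 759 broad regions had, in every replicate, a background exceeding 3 times that of the whole genome. Of these 16, 11 overlapped no protein-coding gene. Among the 5187 other shared regions, 23 had such a background in every replicate. The pileup of the 16 broad regions ran from 507 to 710, 432 to 704 and 443 to 703 fragments in replicates 1, 2 and 3. Leaving aside the MUTE region, their fold did not exceed 1.63, 2.00 and 1.67. The group includes the third widest region, 13343 bp on chromosome 3 (14191815 to 14205157), with folds of 1.63, 2.00 and 1.67, as well as the end of chromosome 2 (1046 to 10333) and a region over UBQ13, a polyubiquitin gene, on chromosome 1 (24272714 to 24276302). Without the 16, the median highest pileup of broad regions was 317, 279 and 221 fragments (n = 743).

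Broad regions were found on all chromosomes at similar rates. Chromosomes 1 to 5 held 208, 116, 150, 127 and 158, that is 13.3%, 12.0%, 12.7%, 13.6% and 12.2% of their shared regions and 5.86 to 6.84 per Mb. Complete 1 Mb bins held a median of 5.5 broad regions and at most 18, at 28 to 29 Mb of chromosome 1. There were 15 bins with none, which held 218 other shared regions. One of them, at 3 to 4 Mb of chromosome 2, contains the stretch left out here, where wide regions had been called. Adjacent broad regions were a median of 67266.5 bp apart.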

How the data were processed

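MUTE-GFP chromatin was precipitated in 3 replicates, and 3 input samples of the same numbers entered only as background of the deposited peak lists. Peaks had been called by the authors in each replicate separately, using MACS 2.1.0.20140616 and paired-end fragments, against the input of the same number, at a q-value cutoff of 0.05, an effective genome of 130 Mb and at most 1 fragment per duplicate position, per the file headers. Per the same headers, broad calling was off, scaling brought the larger library down to the smaller, and windows of 1000 and 10000 bp gave the local background. Bowtie2 and the build TAIR10 are named in the submitters' processing notes. The deposited lists give 1 summit per peak, its pileup (a signal in stacked IP fragments), the authors' fold enrichment (a ratio of pileup to background), and deposited −log10 p-values and −log10 q-values, whose lost column headings were taken from the order of MACS output.

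On chromosomes 1 to 5, overlapping or touching peaks of the 3 lists were merged. Regions with a peak of every replicate and a width of at least 3000 bp were kept as broad, and chromosome 2 from 3.2 to 3.7 Mb was left out. A region's pileup, fold and −log10 q in a replicate are the highest among its peaks there, and its strongest summit is that of the peak of highest fold. Background was computed back from pileup and fold, and it was called high above 3 times the genome-wide value. Summits of different replicates within 300 bp were linked into 1 position. Genes came from a RefSeq table of TAIR10.1, which has no strand, so distances refer to gene edges. Its nuclear chromosomes were taken to carry TAIR10 positions. As a check, 49.5% of all listed summits fell in protein-coding genes, against 58.5 and 58.8% after a shift of 1000 bp to either side. Of 45 listed genes, 44 matched an entry, by symbol or synonym. Merging and summit counting were tested on simulated data (Python 3.11.15, pandas 2.3.3, numpy 2.4.6).

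The regions and both gene lists were chosen with earlier results of these data known. Regions named singly by rule were the 10 widest, the 5 with most summits, the 5 of highest mean log2 fold, and 3 on each side of the width limit. Regions at listed genes were also named. Others, among them those over HEC1 and RALFL34, DWF1, BRI1, DET3, PFT1 and TEM1, were named as examples outside this rule. Since the width came from the same peaks, no test was made across regions. The only test was an exact sign permutation over 3 held-out replicates. The alternatives tried were other width minimums, stricter peaks, other joining, keeping the stretch of chromosome 2, and leaving out each replicate or the high-background peaks.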

Additional observations from a re-analysis of the deposited data

How the results depend on the processing

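The pileup ratio and the held-out ratios, the results set against other regions under the alternatives, stayed above 1 in every setting run. The 759 broad regions became 373 at a minimum of 4000 bp, 471 with peaks of fold 3 or more, and 323 when the own peaks of every replicate had to cover 3000 bp. The other settings gave 584 to 1112. The median over broad regions of the mean number of summits per replicate (1.33) was 1 with peaks of fold 3 or more and with −log10 q of 10 or more, and 1 to 1.5 without one replicate. The spacing of 2021 bp was 1835 bp at a minimum of 2500 bp, 2345.5 bp at 4000 bp, 2813 bp with fold 3 or more and 2712 bp with own peaks, and 2060 to 2102 bp without one replicate. The pileup ratio of 1.92 was 1.78, 2.14, 1.17 and 2.30 under the same 4 settings, 1.53 with −log10 q of 10 or more, and 2.02 to 2.26 without one replicate. The share of summits in protein-coding genes, 43.9%, was 41.0% at 4000 bp, 35.0% with fold 3 or more, 40.1% with −log10 q of 10 or more, 38.2% with own peaks, and 41.7 to 42.6% without one replicate. Over all annotated genes, as planned at first, it was 48.1%. Stricter peaks and wider minimums leave fewer regions by construction, and other causes were not tested. Without high-background peaks, a setting added later, 743 regions remained. The held-out values kept their direction at 2500 and 4000 bp. Summits near gene starts and the E-box and G-box shares were not run, because strand and genome sequence were not used here. No paired analysis was possible because the lists already set each IP against the input of its number, and input values per region were not used here. Replicate 2 kept the fewest IP fragments and replicate 3 listed the fewest peaks, and the part of depth and list length in the weak summits was not tested.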

Other observations

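Of 326 annotated miRNA genes, 17 were overlapped by a broad region (5.21%) and 41 by another shared region (12.6%). The same shares over all protein-coding genes were 5.02% and 19.9%, so the share of miRNA genes in broad regions was near that of protein-coding genes. Overlap grows with gene length, and the 2 classes were not matched for length. Separate broad regions held MIR159a and MIR159b, whose miRNA acts on MYB genes. The same was true of MIR166a, MIR166b and MIR166e, whose miRNA acts on homeodomain-leucine zipper genes, and of MIR171a and MIR171c, whose miRNA acts on genes of GRAS factors. MIR167a, whose miRNA acts on auxin response factor genes, had folds of 4.65, 4.82 and 3.97 in replicates 1, 2 and 3, with the strongest summit 205 to 271 bp from it. MIR171a had folds of 5.59, 5.23 and 3.87. MIR156c lay in a weak broad region with folds of 2.14, 2.33 and 1.77. MIR398b and MIR398c lay in neighbouring broad regions with folds of 4.25, 4.52 and 3.21 for MIR398b and 2.43, 2.41 and 1.94 for MIR398c. MIR5642a and MIR5642b lay in regions of high background. These genes were looked at after the values had been seen, and the counts were not tested.

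Some broad regions stood in close pairs. Of 754 pairs of neighbours, 25 were less than 1000 bp apart and 101 less than 10000 bp. The closest were 145 bp apart on chromosome 2 (17158464 to 17168407 and 17168553 to 17172721), with folds of 4.79, 6.88 and 5.18 in the first and 5.22, 5.90 and 4.52 in the second. On chromosome 4, 199 bp separated a region of 3868 bp from one of 7341 bp over BRI1, the brassinosteroid receptor gene, with folds of 4.84, 6.16 and 4.37. The SCRM2 region lay 373 bp from a broad region over DET3, a proton pump subunit gene, with folds of 6.36, 9.36 and 8.13. A region over PFT1, a Mediator subunit gene, with folds of 6.39, 10.4 and 8.26, lay 352 bp from one over TEM1, a gene of a flowering repressor, with folds of 2.41, 3.47 and 2.56. Some close pairs were regions of high background on chromosome 5. In a pair 355 bp apart, the folds were 1.28, 1.51 and 1.43 in the first (from 11701778) and 1.36, 1.64 and 1.40 in the second. In a pair 631 bp apart, they were 1.40, 1.70 and 1.41 in the first (from 11726189) and 1.51, 1.83 and 1.53 in the second. The number of close pairs was not compared with other shared regions.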
